A study of Homo sapiens with 12 samples.

Results

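Mucin-type O-glycosylation is the addition of sugar chains to serine and threonine residues of proteins in the Golgi. It was followed here through 9 of its genes out of 16633 listed in either of the 2 expression tables. The genes were named by symbol. They encode the polypeptide N-acetylgalactosaminyltransferases GALNT1, GALNT2, GALNT6, GALNT7, GALNT10, GALNT11 and GALNT15, the core 1 galactosyltransferase C1GALT1, and its chaperone C1GALT1C1 (also called COSMC). The set was selected on the strong fall of GALNT15 with both treatments, so the change of GALNT15 is described without a test. All 9 genes were listed in both tables and all 9 passed the minimum of a mean of 10 normalized counts. Members of the same family outside the set are described separately.

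The libraries hold polyadenylated RNA of HT1080 cells, an established human fibrosarcoma line labelled as wild type. Every group was grown in biotin-depleted medium that was changed to low serum (1% FBS) before treatment. For the PMA experiment, 3 libraries were made after 24 h with PMA (phorbol 12-myristate 13-acetate) at 40 nM, which activates protein kinase C, and 3 from controls. For the ConA experiment, 3 were made after 24 h with ConA (concanavalin A), a plant lectin that binds mannose and glucose residues of glycoproteins, at 40 µg/mL, and 3 from another set of controls. Values are normalized counts, meaning reads assigned to a gene and divided by 1 factor per library. The tables were normalized apart, so each treatment is read only against the controls of its own table.

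GALNT enzymes carry out the first step of the pathway by transferring N-acetylgalactosamine from UDP-GalNAc to the protein. Some members start on bare peptide, and others prefer peptides that already carry a sugar and fill in neighbouring sites. C1GALT1 then adds galactose to make the core 1 structure, and C1GALT1C1 is the chaperone without which C1GALT1 does not fold into an active enzyme. Later enzymes branch, extend or cap the chain, most often with sialic acid, and mucins and mucin-like membrane proteins are its densest carriers.

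Estimated depth was 33649194 to 45587900 reads per library, with a median of 40976756. Pairs of libraries of the same group differed by 3.52 to 16.5 times the variance that counting alone gives, so they differed by more than counting error. This does not tell whether libraries share the same RNA or culture. Errors are given as the spread over 3 libraries. The labels do not say that the libraries came from separate cultures, and p-values then measure only the spread between these libraries, which may be technical. The 10 mesenchymal markers summed to 587277 to 591046 normalized counts per PMA control, mostly VIM, FN1, LGALS1, SPARC and CD44, while THY1 (mean 117) and S100A4 (mean 194) were low there and THY1 was not listed in the ConA table. The mesenchymal list moved with the treatments as well. With PMA 2 of 10 were higher and 6 lower by an adjusted p of 0.05 or less (SPARC -1.53 on the log2 scale), against 32.8% and 30.5% of all genes. With ConA 3 of 9 were higher and 5 lower (S100A4 -1.05, VIM -0.79), against 32.8% and 32.5% of all genes. The part of this list in the results was not tested. The epithelial list had 4 of 8 genes listed in the PMA table, summing to 201 to 266 normalized counts per library, and 7 of 8 in the ConA table, summing to 199 to 347. None of 6 erythroid genes was listed. Leukocyte markers were listed for 8 of 13 genes in the PMA table and for 3 of 13 in the ConA table, among them PTPRC, CD2, CD3D, CD3E and NKG7 in the PMA table, with the values given below beside the results they accompany.

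The sequence upstream of the start of the 3 members with the largest falls under PMA is shown first, since these are the genes whose levels differ most between groups in the same direction. The sequences are the 250 bases before the annotated start in RefSeq (GRCh38.p14, plus strand), 5′ to 3′, and 8 of the 9 members were matched to such an entry. Capitals mark a match to a relaxed AP-1 pattern (TGANTCA, with any base at N) in GALNT15. In GALNT7 and GALNT10 they mark matches to the GC box (GGGCGG, read on both strands, overlapping matches counted). GALNT15 lies at chr3:16174430-16174679, GALNT7 at chr4:173168561-173168810 and GALNT10 at chr5:154190483-154190732.
GALNT15: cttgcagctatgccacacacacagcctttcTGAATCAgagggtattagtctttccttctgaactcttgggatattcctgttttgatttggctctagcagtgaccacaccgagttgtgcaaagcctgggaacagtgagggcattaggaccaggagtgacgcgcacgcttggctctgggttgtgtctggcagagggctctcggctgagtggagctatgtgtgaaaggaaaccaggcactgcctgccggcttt
GALNT7: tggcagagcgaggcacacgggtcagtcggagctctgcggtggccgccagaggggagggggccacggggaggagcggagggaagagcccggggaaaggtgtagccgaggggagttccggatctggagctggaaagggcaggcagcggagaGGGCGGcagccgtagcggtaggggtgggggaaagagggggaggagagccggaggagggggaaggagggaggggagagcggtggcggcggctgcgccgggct
GALNT10: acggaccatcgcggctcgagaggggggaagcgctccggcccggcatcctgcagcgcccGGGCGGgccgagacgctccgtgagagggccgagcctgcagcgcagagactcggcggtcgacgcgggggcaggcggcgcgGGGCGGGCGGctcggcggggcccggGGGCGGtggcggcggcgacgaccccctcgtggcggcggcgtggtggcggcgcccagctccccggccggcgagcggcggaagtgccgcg
The AP-1 pattern used here allows any base at its centre. It matched once in the GALNT15 window, as TGAATCA with a central A, 220 bases before the start. No window of the other 7 matched members held the pattern. Among all 35116 promoter windows of this length, 6.57% held the relaxed pattern. No stricter AP-1 pattern was searched, so the match in GALNT15 need not be an AP-1 site. The GALNT15 window held no GC box and had a GC content of 53.2%, against 72.4% for GALNT7 with 1 GC box and 82.4% for GALNT10 with 4 GC boxes. The GALNT11 window and a window of GALNT1 also held no GC box. GC boxes were present in 42.6% of all windows. The cyclic AMP element (TGACGTCA), the STAT motif (TTCNNNGAA) and the interferon-stimulated response element matched in no member window, and they were present in 1.65%, 6.57% and 3.02% of all windows. A match of letters is a description of the sequence and not a site at which a factor was measured.

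GALNT15, a less studied member of the family, stood at 539, 529 and 577 normalized counts in the 3 PMA controls and at 10.4, 6.65 and 22.7 in the 3 libraries with PMA. ConA-treated libraries held 107, 108 and 71.0 and their controls 961, 878 and 1002. Treated and control libraries did not overlap in either table, and the level with PMA was close to the lower end of what the libraries could count. As estimated reads, the PMA controls held 585, 591 and 639 and the PMA libraries 9, 7 and 19. The mean under PMA was 13.3 ± 8.41 normalized counts against 548 ± 25.3 in controls (SD, n = 3), a 41.3-fold lower level. The mean under ConA was 95.3 ± 21.0 against 947 ± 62.8 (SD, n = 3), a 9.94-fold lower level. On the log2(value + 1) scale the changes were -5.43 with PMA and -3.32 with ConA. By size of fall GALNT15 was number 1 of 15153 genes with PMA and number 4 of 15139 with ConA, which restates how the set was selected. In bulk RNA, fewer cells that express a gene and less RNA per cell cannot be told apart.

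The third PMA library, which had the highest GALNT15 level of its group, also had the highest summed leukocyte markers, while CD3G, CSF1R and FCER1G were highest in the second. Over the 8 leukocyte markers listed in the PMA table, the summed level was 933 to 1017 normalized counts in the controls. With PMA it was 1113 to 1603. By an adjusted p of 0.05 or less 4 of the 8 were higher (CD3E, CD3G, NKG7 and FCER1G), where 32.8% of all genes were. FCER1G passed the minimum level only through its PMA libraries (control mean 9.08), so its p is no support for a rise. CD79A, MS4A1, CD14 and TYROBP were not listed in either table. PTPRC, the CD45 gene of all leukocytes, stood at 187, 177 and 176 in the controls and 168, 232 and 328 with PMA. Of the 13 markers 3 were listed in the ConA table (CD3D, CSF1R and FCER1G), summing to 378 to 426 in the controls and 302 to 309 with ConA, and PTPRC was not listed. Most of this sum was CSF1R, with means of 357 in the controls and 260 with ConA. FCER1G stood at means of 17.6 and 22.8 and CD3D at 26.6 and 24.2. GALNT15 was lower in every PMA library than in every control, with or without the third library. The part of these markers in the results was not tested.

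**Figure D1:**
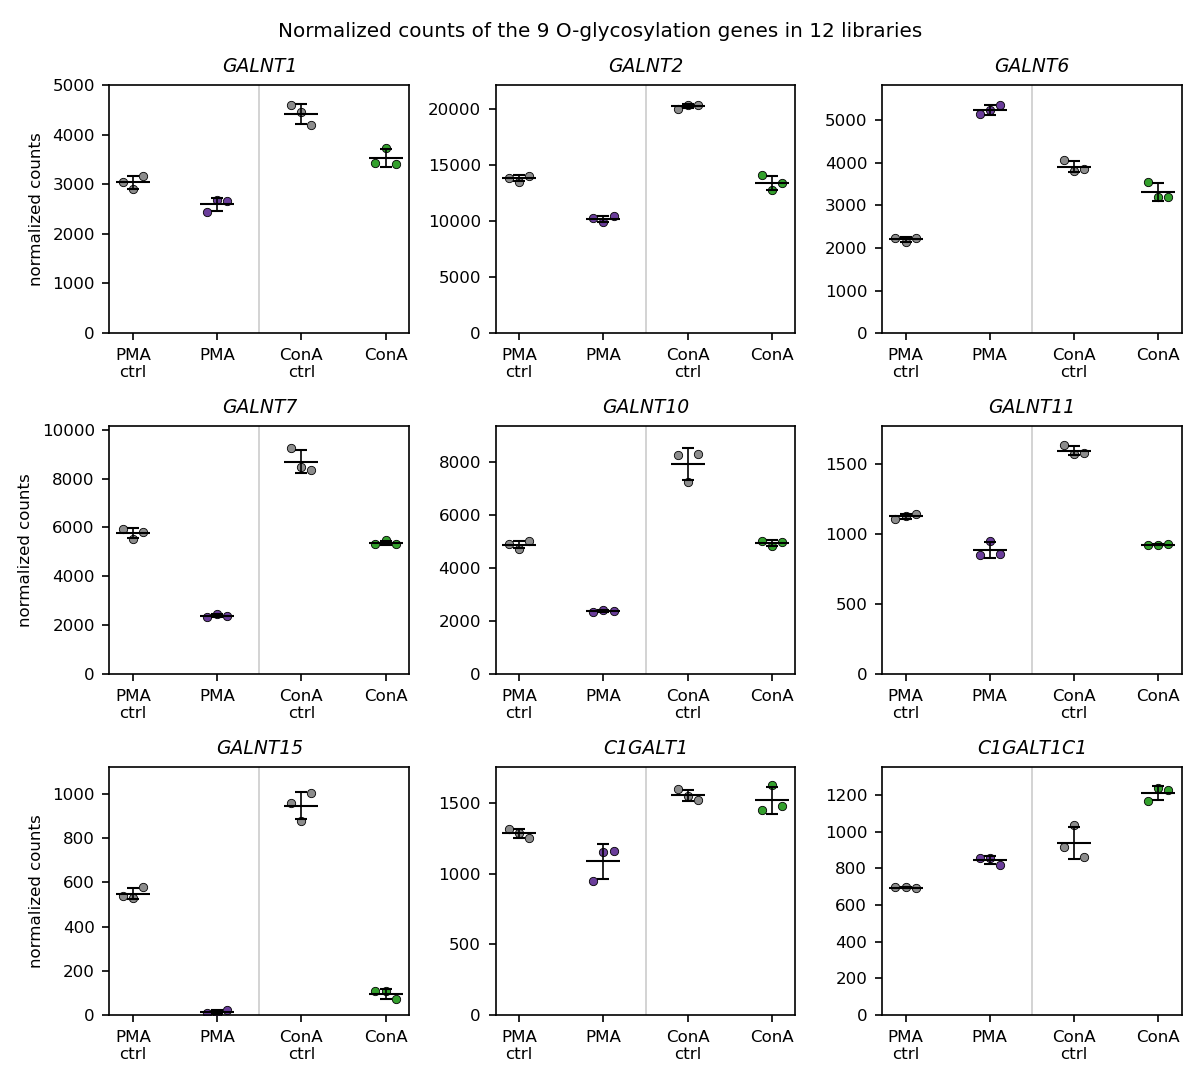
Normalized counts of the 9 genes in each of the 12 libraries, 1 panel per gene with its own axis from 0. Points are libraries, horizontal lines are means of 3 libraries and bars are SD, and the grey line parts the PMA table from the ConA table, whose levels are not comparable with each other. GALNT15 stood near 0 with PMA (13.3 ± 8.41) and at 95.3 ± 21.0 with ConA, and GALNT6 was the member that stood higher with PMA and lower with ConA.

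The other 8 members were tested with limma across all genes of a table, under a fold rule (log2 fold change of 1 or more in size and adjusted p no higher than 0.0001) and a second rule (adjusted p no higher than 0.05 at any size). With PMA, GALNT6 was called higher and GALNT7 and GALNT10 were called lower by the fold rule, which called 4.03% of all 15153 genes tested higher and 4.61% lower. By the second rule 2 of the 8 were higher and 6 lower, against 32.8% and 30.5% of all genes. With ConA none of the 8 passed the fold rule, which called 5.83% of 15139 genes higher and 2.88% lower, and by the second rule 1 was higher and 6 lower, against 32.8% and 32.5% of all genes. The median log2 fold change of the 8 was -0.30 with PMA and -0.46 with ConA, where that of all genes tested was 0.00 in both.

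GALNT7 and GALNT10, which both prefer substrates that already carry GalNAc, fell with each treatment. GALNT7 stood at 5933, 5540.2 and 5806 normalized counts in the PMA controls and at 2326, 2455 and 2374 with PMA. Its ConA controls stood at 9248, 8476 and 8364 and the treated libraries at 5338, 5476 and 5316. The treated libraries lay below all controls in both tables, with narrow spread around each mean. The log2 fold change was -1.27 with PMA (95% confidence interval -1.36 to -1.18, limma adjusted p = 4.24e-10) and -0.69 with ConA (-0.81 to -0.58, limma adjusted p = 6.07e-08).

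GALNT10 stood at 4908, 4718 and 5001 normalized counts in the PMA controls and at 2338, 2411 and 2389 with PMA. Under ConA it stood at 5024, 4823 and 4965, with 8251, 7225 and 8285 in the controls. All treated libraries were lower than all controls. GALNT10 changed by -1.03 with PMA (95% confidence interval -1.12 to -0.95, limma adjusted p = 1.36e-09), just past the size of 1 that the fold rule asks for, and -0.68 with ConA (-0.81 to -0.55, limma adjusted p = 2.17e-07).

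GALNT6, a close relative of GALNT3 that glycosylates fibronectin, rose with PMA and fell slightly with ConA. It stood at 2227, 2140.0 and 2237 normalized counts in the PMA controls and at 5142, 5241 and 5355 with PMA, a 2.38-fold higher mean. ConA-treated libraries held 3551, 3200.4 and 3196 and their controls 4071, 3806 and 3869. The groups did not overlap in either table, with the treated libraries above the controls under PMA and below them under ConA. The log2 fold change was 1.25 with PMA (95% confidence interval 1.17 to 1.34, limma adjusted p = 2.79e-10) and -0.24 with ConA (-0.37 to -0.12, limma adjusted p = 0.00218).

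GALNT2 and GALNT1, broadly expressed enzymes that start on bare peptide, fell by less. GALNT2 stood at 13900.4, 13536 and 14081 normalized counts in the PMA controls and at 10297, 9944 and 10422 with PMA. ConA-treated libraries held 14098, 12773 and 13372 and their controls 20066, 20364 and 20373. Control and treated libraries lay apart in both tables. The log2 fold change of GALNT2 was -0.44 with PMA (95% confidence interval -0.52 to -0.36, limma adjusted p = 1.16e-06) and -0.60 with ConA (-0.71 to -0.48, limma adjusted p = 2.26e-07).

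GALNT1 stood at 3058, 2906 and 3168 normalized counts in the PMA controls and at 2439, 2688 and 2656 with PMA, and under ConA at 3429, 3736 and 3417 against 4604, 4452 and 4196. Control and treated libraries did not overlap. Its log2 fold change was -0.23 with PMA (limma adjusted p = 0.00189) and -0.32 with ConA (limma adjusted p = 0.000188).

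GALNT11, which glycosylates Notch and lipoprotein receptors, stood at 1107, 1128 and 1138 normalized counts in the PMA controls and at 851, 952 and 860 with PMA. With ConA it stood at 923, 924 and 925, against 1633, 1571 and 1578 in the controls. It fell with both, and its fall with ConA was the largest among the 8 tested members in that table. On the log2 scale it changed by -0.34 with PMA (95% confidence interval -0.47 to -0.22, limma adjusted p = 0.000268) and -0.79 with ConA (-0.91 to -0.66, limma adjusted p = 3.99e-08).

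C1GALT1, which builds core 1, stood at 1315, 1290 and 1257 normalized counts in the PMA controls and at 947, 1153 and 1165 with PMA. The ConA controls held 1600, 1551 and 1523 and the treated libraries 1454, 1627 and 1482. The PMA libraries lay below their controls, while the ConA libraries overlapped theirs. The log2 fold change with PMA was -0.25 (95% confidence interval -0.41 to -0.08, limma adjusted p = 0.0126). Without a variance trend in the model its adjusted p was 0.0572, and without PMA library 1 the change was -0.15. With ConA it was -0.04 (-0.17 to 0.10, limma adjusted p = 0.631).

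C1GALT1C1, the chaperone of C1GALT1, rose with both treatments. It stood at 700, 696 and 691 normalized counts in the PMA controls and at 859, 856 and 819 with PMA, and under ConA at 1167, 1239 and 1230.2 against 917, 1036 and 865. The treated libraries were above all controls in each table. The rise was 0.28 on the log2 scale with PMA (limma adjusted p = 0.000674) and 0.37 with ConA (limma adjusted p = 0.000499). The near-identical retrogene C1GALT1C1L, at means of 35.3 (PMA controls) and 42.2 (ConA controls), may share reads with it, and its own log2 fold changes were -1.44 with PMA and 0.78 with ConA, so the assignment between the pair is uncertain.

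**Figure D2:**
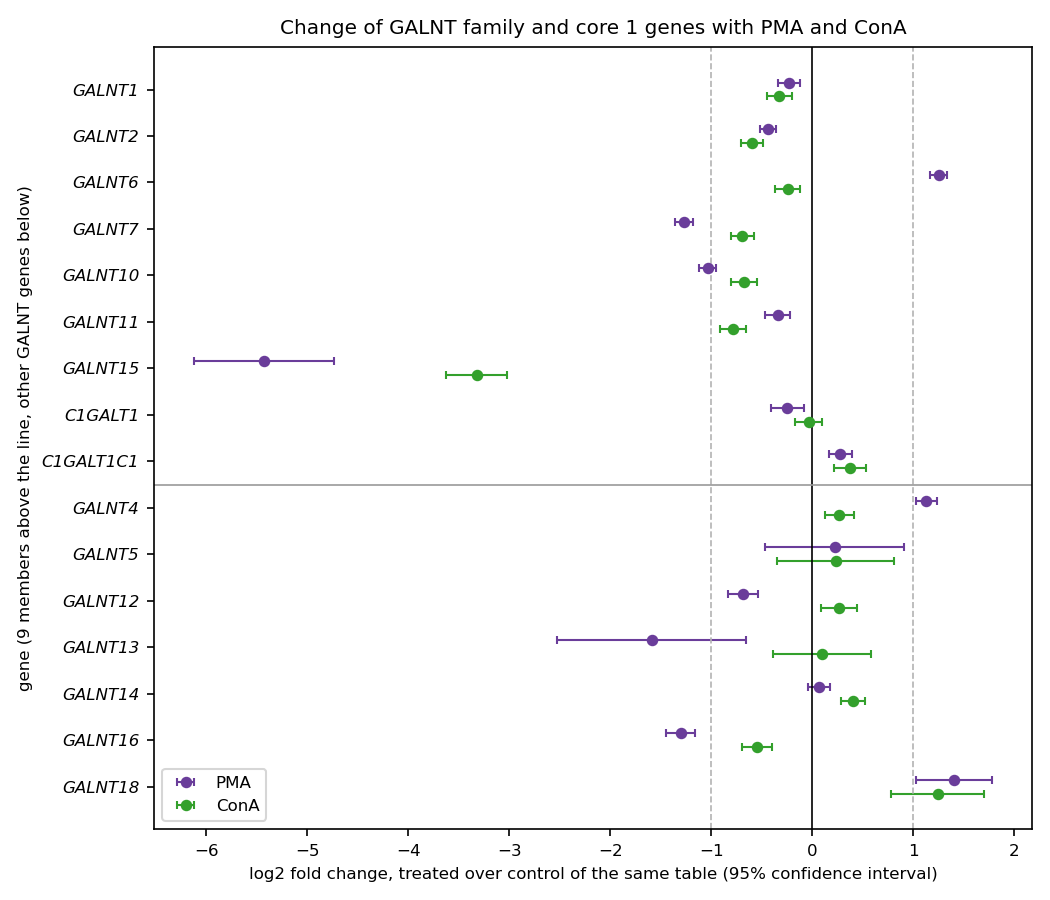
Log2 fold change of treated over control libraries on the log2(value + 1) scale, with 95% confidence intervals from limma (3 against 3 libraries), for the 9 members above the grey line and the tested GALNT genes outside the set below it. Dashed lines mark the fold size of 1, and GALNT6 is the member whose points stand on opposite sides of 0 (1.25 with PMA and -0.24 with ConA). The interval of GALNT15 describes the spread of a gene the set was selected on.

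To compare the treatments, the log2 fold change under ConA was subtracted from that under PMA and the difference tested in 1 limma model of all 12 libraries. This difference passed the fold rule for 3.67% of 15030 genes in the higher direction and 6.89% in the lower, and the second rule for 30.4% and 30.7%. Of the 8 members 1 passed the fold rule, GALNT6, whose change with PMA exceeded that with ConA by 1.49 (95% confidence interval 1.35 to 1.64, limma adjusted p = 5.94e-12). By the second rule 3 members were higher and 2 lower. GALNT7 (-0.58, limma adjusted p = 8.79e-07) and GALNT10 (-0.36, limma adjusted p = 0.000403) fell further with PMA than with ConA, and GALNT11 (0.44, limma adjusted p = 8.35e-05) fell further with ConA.

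GALNT2 also passed, with a difference of 0.16 (limma adjusted p = 0.0328), but this one reversed to -0.08 under quantile normalization. It rested on single libraries too, since its adjusted p was 0.0537 to 0.0916 when any 1 of 7 libraries was left out (PMA controls 1 and 2, PMA libraries 1 and 3, ConA control 6, ConA libraries 2 and 3). For GALNT1 the difference was 0.09 (95% confidence interval -0.07 to 0.26), for C1GALT1 -0.21 (-0.42 to -0.0012) and for C1GALT1C1 -0.09 (-0.28 to 0.10), with limma adjusted p-values of 0.307, 0.0757 and 0.398. The difference for GALNT15, -2.10, is given without a test because both of its terms chose the set.

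Levels of different GALNT and core 1 genes were compared only after division by transcript length in kb (GENCODE v29, the coding transcript with the longest coding sequence). On this scale GALNT2 ranked first in all 4 groups among the GALNT and core 1 genes listed, and it made up 32.2% ± 0.803 of the summed GALNT level under PMA against 36.6% ± 0.149 in controls (SD, n = 3). GALNT7 ranked second in both control groups, with 7.77% ± 0.188 of the sum under PMA where controls had 15.7% ± 0.289, and 13.5% ± 0.344 under ConA where its controls had 16.2% ± 0.671. GALNT6 went from 4.97% ± 0.0150 to 14.1% ± 0.160 with PMA, and from rank 7 to rank 2. GALNT15 was 0.0398% ± 0.0249 of the sum under PMA against 1.38% ± 0.0446 in controls, and 0.220% ± 0.0479 under ConA against 1.63% ± 0.0886. It was thus a minor share of the pool already in untreated cells.

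The summed GALNT level per kb was 7123 ± 65.6 under PMA against 8500 ± 182 in controls, and 9276 ± 118 under ConA against 12469 ± 254 (SD, n = 3 each). Under ConA, GALNT14, outside the set, moved from 7.19% ± 0.243 to 12.8% ± 0.197 of the sum, and to rank 3. These shares are descriptions and were not tested. With exon unions in place of transcript lengths GALNT2 and GALNT7 kept ranks 1 and 2 in the controls, and the GALNT2 share was 41.3% in the PMA controls.

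**Figure D3:**
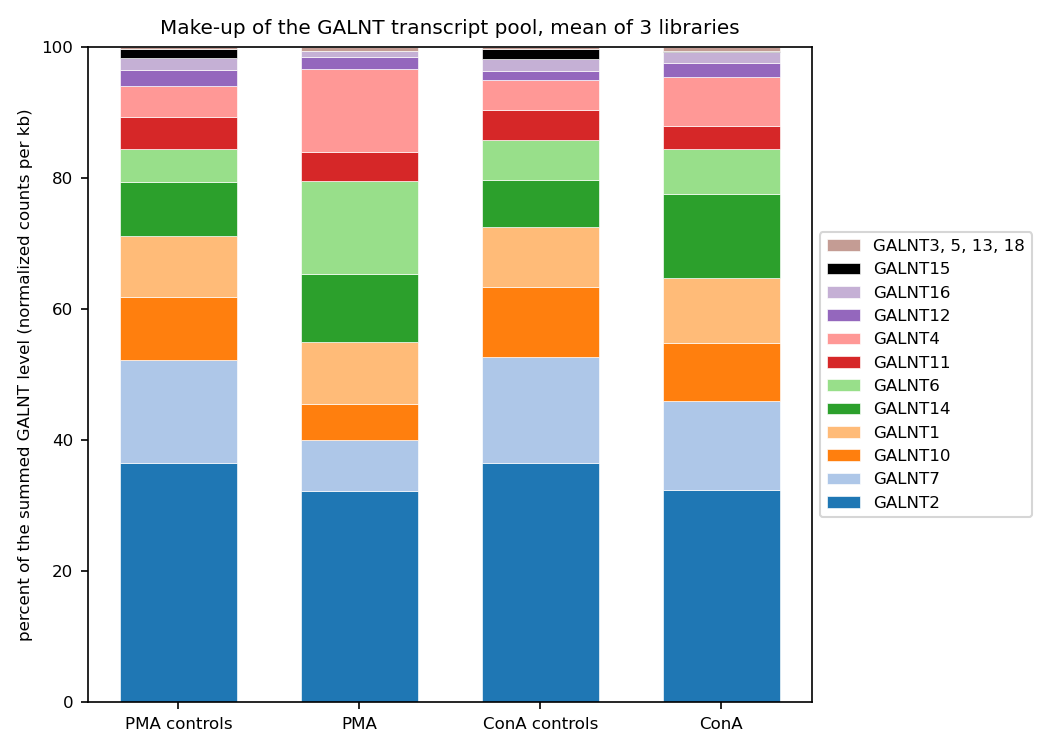
Share of each GALNT gene in the summed GALNT level (normalized counts per kb of transcript) in the 4 groups, as means of 3 libraries stacked to 100%. GALNT2 is the largest share in each bar (32.2% to 36.6%), GALNT6 widens from 4.97% to 14.1% with PMA, and the black band of GALNT15 is visible only in the controls.

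The counts of the lists that follow stand against the shares over all genes given above for the same rule, and no list was tested as a whole. Among the 13 GALNT genes outside the set, GALNT4 and GALNT18 rose and GALNT16 fell with PMA. With PMA, 7 of them were listed and tested, and 2 were called higher and 1 lower, with 2 higher and 3 lower by the second rule and a median log2 fold change of 0.07. GALNT16 stood at 843, 816 and 915 normalized counts in the controls and 339, 340.3 and 362 with PMA (log2 fold change -1.30, limma adjusted p = 1.59e-08). GALNT18 was a low gene that stood at 40.6, 32.2 and 29.8 in the controls and 89.4, 95.1 and 89.8 with PMA (1.40, limma adjusted p = 2.53e-05), and its call was lost without PMA control 2 or any 1 of the 3 PMA libraries (adjusted p 0.000149 to 0.000312). GALNT4, an enzyme known for glycosylating the selectin ligand PSGL-1, stood at 2149.6, 2144 and 2375 in the controls and 5028, 4816 and 4748 with PMA (1.13, limma adjusted p = 3.77e-09). Its exon is shared with the readthrough gene POC1B-GALNT4, itself higher with PMA (1.59) and with ConA (0.69), and the division of reads between them is uncertain.

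The remaining members of that list that passed the second rule with PMA were GALNT12 (-0.69, limma adjusted p = 4.06e-06) and GALNT13 (-1.59, limma adjusted p = 0.0066). GALNT13 passed the minimum level only through its controls, so its p is no support for a fall. With ConA 8 of the 13 were listed and 7 tested, none was called, and 4 were higher and 1 lower by the second rule, with a median of 0.26. GALNT18 (1.24, limma adjusted p = 0.000151), GALNT14 (0.40, limma adjusted p = 1.39e-05) and GALNT4 (0.27, limma adjusted p = 0.00301) were higher, and GALNT16 (-0.55, limma adjusted p = 7.63e-06) was lower. GALNT12 fell with PMA and rose with ConA (0.26, limma adjusted p = 0.0122), a difference of -0.95 (limma adjusted p = 4.89e-07).

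Among the enzymes that branch, extend or cap the chain, ST3GAL1 rose with PMA and GCNT3 rose with ConA. With PMA, 14 of 15 were listed and 9 tested, and 1 was called higher and none lower, with 2 higher and 4 lower by the second rule and a median log2 fold change of -0.14. The called gene was ST3GAL1, the sialyltransferase that caps core 1 and stops its branching, at 2446, 2192 and 2447 normalized counts in the controls and 13831, 13684 and 13709.6 with PMA. It was 5.82-fold higher (log2 fold change 2.54, limma adjusted p = 4.73e-12). GCNT1, which starts the core 2 branch from the same core 1 substrate, was lower with PMA (-0.79, limma adjusted p = 7.93e-06). Its homologue GCNT3 (-1.08, limma adjusted p = 0.000578) and the sialyltransferase ST8SIA6 (-1.27, limma adjusted p = 0.0138) were lower too. ST8SIA6 passed the minimum level only through its controls, so its p is no support for a fall. ST3GAL4, another sialyltransferase, was higher (0.74, limma adjusted p = 2.24e-07).

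With ConA, 14 of 15 were listed and 12 tested, 2 were called higher and none lower, and 7 were higher and 2 lower by the second rule, with a median of 0.58. The called genes were GCNT3 and GCNT4, which make core 2 type branches, and only GCNT3 was above the minimum level in its controls too. GCNT3 stood at 61.5, 49.0 and 65.1 normalized counts in the controls and 315, 299 and 279 with ConA (log2 fold change 2.33, limma adjusted p = 3.18e-09). GCNT4 rested on 6 estimated reads over the 3 controls against 142 over the 3 ConA libraries, a ratio of 22.8 with an exact counting interval of 10.2 to 63.2 that covers counting error only. GCNT4 passed the minimum level only through its ConA libraries, so it is given as a ratio without a p, and its call is no support for a rise. The counts and the median above include GCNT4 and B3GNT3, which entered the test in the same way. GCNT1 (0.59), ST3GAL2 (0.75), ST6GALNAC5 (1.69) and B3GNT3 (2.15), which extends core 1, were higher as well, with limma adjusted p-values of 1.69e-05, 3.95e-08, 0.000138 and 0.000248, and of these ST6GALNAC5 was a low gene and B3GNT3 passed the minimum level only through its ConA libraries, so its p is no support for a rise. ST3GAL1 was higher with ConA by 0.57 (limma adjusted p = 4.29e-06). The difference between PMA and ConA was 1.97 for ST3GAL1 (limma adjusted p = 2.1e-12), -1.38 for GCNT1 (limma adjusted p = 1.6e-08) and -3.41 for GCNT3 (limma adjusted p = 1.52e-09).

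Genes that supply the nucleotide sugars were all 18 listed and tested in both tables, and none passed the fold rule in either. With PMA 9 of 18 were higher and 3 lower by the second rule, against 32.8% and 30.5% of all genes, with a median log2 fold change of 0.11. UAP1, which makes UDP-GlcNAc and can make UDP-GalNAc, stood at 5293, 5267 and 5027 normalized counts in the controls and 10119.6, 10679 and 10254 with PMA (0.99, limma adjusted p = 1.76e-09), just under the fold size of 1. It passed the fold rule without PMA control 2 (1.00) or without PMA library 3 (1.00). The hexosamine pathway genes PGM3 (0.72, limma adjusted p = 2.8e-08) and GNPNAT1 (0.54, limma adjusted p = 6.07e-06) and the sialic acid activating enzyme CMAS (0.53, limma adjusted p = 1.17e-06) were also higher with PMA.

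With ConA 4 of 18 supply genes were higher and 6 lower by the second rule, with a median of -0.03, where 32.8% and 32.5% of all genes were, so the count of lower genes was near the share over all genes. GALK1 (-0.60, limma adjusted p = 1.6e-05) and GFPT2 (-0.50, limma adjusted p = 8.18e-07) were lower and the UDP-GlcNAc transporter SLC35A3 (0.50, limma adjusted p = 7.02e-05) was higher. The change with PMA exceeded the change with ConA by 1.15 for UAP1 (limma adjusted p = 6.13e-11).

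Among 25 mucins and mucin-like glycoproteins, the carriers of these chains, 14 were listed and 13 tested with PMA. By the fold rule 3 were called higher and 1 lower, and by the second rule 4 were higher and 6 lower, with a median log2 fold change of -0.31. PODXL (podocalyxin, a sialomucin) stood at 8466, 8565 and 9361 normalized counts in the controls and 21899.9, 20935 and 20877 with PMA (1.27, limma adjusted p = 7.83e-10). PDPN (podoplanin) stood at 571, 507 and 576 in the controls and 2013, 2069 and 2029.5 with PMA (1.89, limma adjusted p = 2.65e-10), and the membrane mucin MUC20 at 3.69, 4.47 and 9.93 in the controls and 102, 125 and 114 with PMA (4.13, limma adjusted p = 5.36e-07). The secreted mucin MUC6 stood at 43.3, 44.7 and 61.4 in the controls and 6.97, 8.56 and 2.39 with PMA (-2.98, limma adjusted p = 5.29e-05). MUC6 lost the call without any 1 of the 3 controls or without PMA library 1 (adjusted p 0.000134 to 0.000489).

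The 4 further mucin-like genes with the largest changes past the second rule with PMA were low. These 4 were CD24 (-2.12), CD34 (-2.01), MUC19 (-1.84) and MUC1 (-0.92), with limma adjusted p-values of 0.00285, 0.000808, 0.000449 and 0.00209. MUC6, MUC19 and CD34 passed the minimum level only through their controls, and MUC20 only through its PMA libraries. The p-values of these genes with PMA, and the calls of MUC6 and MUC20 counted above, are therefore no support for a change. The second-rule counts and the median of the mucin list with PMA include these genes, so those summaries are no support for a shift of the list. CD24 rested in part on PMA control 2, with 439 normalized counts where PMA controls 1 and 3 had 91.3 and 93.0, and its log2 fold change was -1.37 without that library. SELPLG, the PSGL-1 gene of leukocytes, stood at 160, 219 and 283 in PMA libraries 1 to 3, where PTPRC stood at 168, 232 and 328. It did not pass the second rule without PMA control 2 or PMA library 3 (adjusted p 0.0993 and 0.157).

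With ConA 15 mucin-list genes were listed and 13 tested, 2 were called higher and none lower, and 7 were higher and 3 lower by the second rule, with a median of 0.71. MUC13, a membrane mucin, stood at 42.7, 25.01 and 29.05 normalized counts in the controls and 170, 256 and 225 with ConA (log2 fold change 2.73, limma adjusted p = 5.01e-08). CD34 stood at 55.2, 41.0 and 31.1 in the controls and 136, 138 and 173 with ConA (1.82, limma adjusted p = 2.16e-06). The difference between its changes, PMA minus ConA, was -3.83. It is given without a p because CD34 had a mean of 4.49 with PMA and passed the minimum level in the PMA table only through its controls. MUC4 (1.02), MUC1 (0.84) and PDPN (0.80) were higher and SELPLG (-0.91) lower, with limma adjusted p-values of 0.00606, 4.52e-05, 3.26e-08 and 0.00321. The leukocyte-type sialomucin SPN (CD43) was lower with both treatments, by the second rule, at -0.31 with PMA (limma adjusted p = 0.00947) and -0.40 with ConA (limma adjusted p = 3.51e-05).

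**Figure D4:**
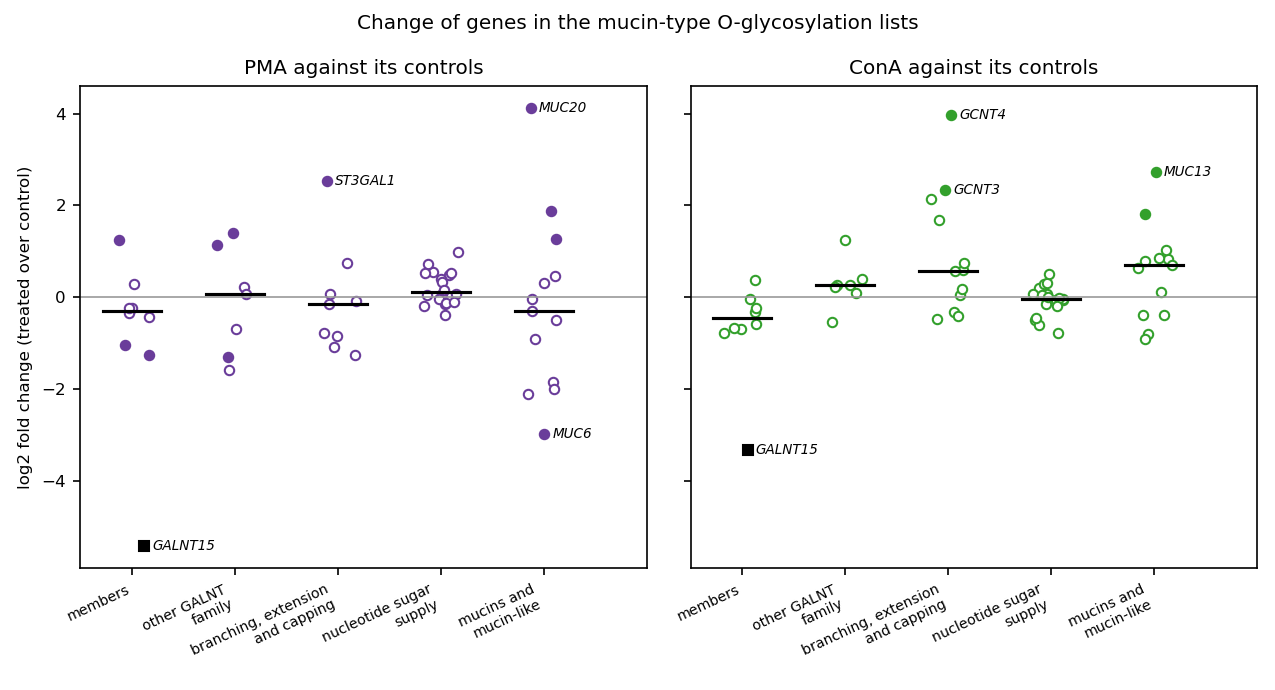
Log2 fold change of every tested gene in 5 lists under PMA and ConA, each against 3 controls of its own table. Filled points passed the fold rule, open points did not, black lines are list medians (members without GALNT15, which is the black square), and names mark changes beyond 2.3. The branching and capping list had a median of -0.14 with PMA and 0.58 with ConA, and the mucin list -0.31 and 0.71. The medians include low genes that passed the minimum level only through the group where they are high. Among these are MUC6, MUC19, CD34 and MUC20 with PMA and GCNT4 and B3GNT3 with ConA. The medians are descriptions and no support for a shift of a list.

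The genes whose pattern over the 12 libraries was most like that of GALNT15 were ERMN, PADI3, ACKR3, BGLAP and DRD2, out of 14661 genes compared. Likeness was the root mean square distance of log2(value + 1), each library taken relative to the mean of its own controls. The distances were 0.83 for ERMN and for PADI3, a peptidylarginine deiminase, 0.92 for the chemokine receptor ACKR3, 0.95 for BGLAP (osteocalcin) and 1.01 for the dopamine receptor DRD2. Pearson's r with GALNT15 over the same 12 libraries was 0.963 to 0.992, a description over 4 groups of libraries that all these genes share. DRD2 had a mean of 54.4 normalized counts under PMA against 694 in controls, and of 197 under ConA against 1490 in controls. The other genes were far lower under PMA, at means of 3.56 (ERMN), 6.95 (PADI3), 11.6 (ACKR3) and 0.997 (BGLAP). ERMN, PADI3 and BGLAP passed the minimum level in the PMA table only through their controls. Likeness to GALNT15 is thus in part a shared fall to the lower end of what the libraries could count.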

How the data were processed

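Polyadenylated RNA was sequenced in 12 libraries of HT1080 cells, 3 in each of 4 groups taken from the sample titles. The deposited signal is a normalized count for each gene symbol, which the authors obtained by dividing estimated counts by 1 factor per library, in each table apart. Between 80.0% and 82.3% of values from 5 to 60 were whole multiples of 1 read (within 0.02 reads), so whole reads were not recovered for every gene and no count test was run. Estimated reads per library (33649194 to 45587900) give the depth. The submitters' processing notes name Partek, STAR, Bowtie2 and DESeq2 and the builds hg19 and mm10. The role of each is not given in the sources used here.

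Within a table, treated libraries were set against controls on log2(value + 1) with limma (version 3.58.1, R 4.3.3) and a variance trend. A gene needed a mean of 10 normalized counts or more, and Benjamini-Hochberg adjustment ran over all genes tested. The difference between treatments used 1 fit of 12 libraries. For 3 against 3 libraries an exact permutation test cannot go below 0.1 and was not used. The members and gene lists were chosen with earlier results of these data known. Named were all 9 members, every list gene past the fold rule and up to 4 more per list with the largest changes past adjusted p 0.05. SELPLG, SPN, ST3GAL1 with ConA, GALNT12 with ConA and the between-treatment differences of list genes were added after their values were seen. Promoter sequences are from RefSeq (GRCh38.p14) and transcript lengths from GENCODE v29, used for length only. Some genes of the lists are not reported here by name. No per-sample column was left unused. The test was tried on simulated data. Alternatives covered the pseudocount, the filter, the scaling, the variance trend, the replicate number as a block, 1 fit of 12 libraries and each library left out. Summaries used Python 3.11.15 with pandas 2.3.3 and numpy 2.4.6, and plots matplotlib 3.10.9.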

Additional observations from a re-analysis of the deposited data

Results flagged for a closer look

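The responses to PMA and to ConA differed for 5 of the 8 tested members, by the limma test of the difference itself (adjusted p of at most 0.05). Over all 15030 genes 30.4% passed this rule in the higher and 30.7% in the lower direction, so the count is near the general rate. On the log2 scale, as PMA minus ConA, it was 1.493 for GALNT6, -0.5789 for GALNT7, -0.3554 for GALNT10, 0.4432 for GALNT11 and 0.1592 for GALNT2, which reversed under quantile normalization. GALNT6 was higher with PMA in 3 of 3 libraries and lower with ConA in 3 of 3 libraries than every control of the same table. The groups hold 3 libraries each, so single libraries were not tested for standing apart.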

How the results depend on the processing

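Of 384 values of the 8 tested members under the alternatives, 372 kept their direction and their side of the adjusted p of 0.05. The fold rule called GALNT6, GALNT7 and GALNT10 with PMA in 16 of 16 settings and the difference for GALNT6 in 20 of 20. Without a variance trend the fold rule called 397 genes lower with PMA in place of 699, and with ConA 506 higher in place of 882 and 156 lower in place of 436. Under quantile normalization the difference between treatments reversed to -0.02086 for GALNT1 and to -0.0761 for GALNT2, and the cause was not tested. The fall of GALNT15 ranged from -5.87 to -4.64 with PMA, the smallest with a pseudocount of 10, and from -3.42 to -3.13 with ConA. The difference for C1GALT1 passed the second rule without PMA library 2 (adjusted p 0.0464) or 3 (0.0365). With the replicate block in the PMA table, 597 genes were called higher and 667 lower, and no call or second-rule result of the 8 members changed. Same-numbered libraries of the PMA table had correlations of their deviations of -0.064, 0.096 and 0.096, and not every library correlated best with its own number. Deviations from a mean of 3 libraries are tied to each other, so these values do not decide whether the numbers pair the libraries. In the ConA table no paired analysis was possible because controls and treated libraries share no number. Counts without PMA control 2 or PMA library 3, and the calls of list genes with each library left out, were chosen after seeing the data. Low genes are limited by depth, as 1 read is worth about 1 normalized count.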
